A study of Homo sapiens with 2 samples.

Results

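The DUSP, SPRY and SPRED genes encode inhibitors that act back on the RAS to MAPK signalling cascade. Of these, 10 genes were taken by symbol from the table of 62699 genes, namely DUSP1, DUSP4, DUSP5, DUSP6, DUSP10, SPRY1, SPRY2, SPRY4, SPRED1 and SPRED2. The naming rule used none of their measured values, although the genes were chosen with earlier results of these data known. All 10 reached 1 CPM (counts scaled to a common library size) in at least 1 library, as did 14352 genes of the whole table. RNA was sequenced from HCC1954, an established human breast cancer cell line with an amplified ERBB2 (HER2) gene, in 2 libraries. One library is labelled ASO-NC and the other ASO-1235, where ASO usually stands for antisense oligonucleotide, and the title of the series names LINC01235, a long non-coding RNA, as the subject. The sample titles read NC1235 and Si1235, and Si is a prefix other than ASO, so the labels leave the kind of agent unsettled. Both groups are the same cell line with no other allele named, and the sources used here give neither dose nor time. Each group is 1 library of 1 cell line, so no difference has a replicate check and no p-value is given.

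The ASO-NC library held 48092494 counts and the ASO-1235 library 37916307. LINC01235 went from 1337 counts under ASO-NC to 0 under ASO-1235, at least 373-fold lower with a floor of 3 counts for the library. All 8 markers of HER2-positive luminal epithelium passed 1 CPM, with summed levels of 9809 (ASO-NC) and 9168 CPM (ASO-1235). Of the fibroblast markers 1 of 6 (COL1A1), of the endothelial markers 1 of 4 (VWF) and of the immune markers 2 of 5 (LYZ and ITGAM) passed it. The summed levels in ASO-NC and ASO-1235 were 45.1 and 41.0 CPM for fibroblast, 8.07 and 7.40 CPM for endothelial and 3.45 and 3.38 CPM for immune markers. The leukocyte marker PTPRC had 0 counts under ASO-NC and 8 under ASO-1235. In RNA from a whole culture, fewer cells of a type and less RNA per cell cannot be told apart.

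Growth factor receptors such as HER2 switch on RAS, which passes the signal through RAF and MEK to the kinase ERK. The related JNK and p38 kinases answer mainly to stress and cytokines. ERK activity induces several of its own inhibitors, which makes these genes a common readout of pathway output in HER2-driven cells. DUSP proteins of this class are phosphatases that remove the activating phosphates from MAP kinases. Sprouty proteins (SPRY) act between receptor and RAF, and SPRED proteins bring the RAS inhibitor neurofibromin to the membrane.

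Of the 10 genes, 3 were at least 1.5-fold higher in the ASO-1235 library with a 95% interval that excluded 1. They were SPRY2, SPRED1 and DUSP10, and 0 genes were lower by that rule. Among all 14352 genes at 1 CPM, 6.4% were higher and 2.95% lower by the same rule. On halved counts the 3 calls held, beside 5.2% higher and 2% lower among all genes. With a trend on GC content and transcript length removed, the ratio of SPRED1 was 1.45, and 2 of the 3 calls remained. At 2-fold 0 of the 10 passed either way, beside 2.53% higher and 0.516% lower. DUSP1 was higher by a smaller amount, and DUSP4 and DUSP6 were slightly lower. The group therefore did not move as one, and its median log2 ratio was 0.13, against 0.00087 over all genes at 1 CPM. Ratios are ASO-1235 over ASO-NC after scaling, and intervals are exact for the 2 counts and cover counting error only. No count of genes here compares more than these 2 libraries.

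The first listed promoter window of each of the 3 genes past 1.5-fold, and that of DUSP1, are shown because these 4 genes had the highest ratios. Each window runs from 250 bases before to 50 bases after a RefSeq transcription start (GRCh38.p14), 5′ to 3′ on the gene's strand. Capitals mark matches on either strand to the cyclic AMP response element TGACGTCA, the AP-1 site TGANTCA, the ETS core CCGGAA, the TATA box TATAAA or the CArG box. The short element TGACG was also searched and is not in capitals on its own. Matches of the different motifs marked in capitals did not overlap in these windows.
DUSP1, chr5:172771146-172771445, minus strand: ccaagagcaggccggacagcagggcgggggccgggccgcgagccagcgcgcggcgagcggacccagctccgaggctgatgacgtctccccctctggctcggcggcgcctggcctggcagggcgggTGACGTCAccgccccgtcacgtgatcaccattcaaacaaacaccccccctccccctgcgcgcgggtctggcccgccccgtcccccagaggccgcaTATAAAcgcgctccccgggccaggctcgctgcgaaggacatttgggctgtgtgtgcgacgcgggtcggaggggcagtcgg
DUSP10, chr1:221742040-221742339, minus strand: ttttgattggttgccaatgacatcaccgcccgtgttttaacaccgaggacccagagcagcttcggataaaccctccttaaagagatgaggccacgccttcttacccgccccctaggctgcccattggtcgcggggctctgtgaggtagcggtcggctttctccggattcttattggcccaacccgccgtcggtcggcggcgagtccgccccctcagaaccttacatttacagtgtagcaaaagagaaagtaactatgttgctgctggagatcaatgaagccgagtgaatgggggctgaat
SPRY2, chr13:80341077-80341376, minus strand: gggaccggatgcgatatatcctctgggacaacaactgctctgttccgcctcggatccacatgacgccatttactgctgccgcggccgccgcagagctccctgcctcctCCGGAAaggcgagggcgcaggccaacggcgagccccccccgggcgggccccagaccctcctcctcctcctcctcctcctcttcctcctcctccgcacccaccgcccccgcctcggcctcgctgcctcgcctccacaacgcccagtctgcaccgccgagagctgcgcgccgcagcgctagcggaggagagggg
SPRED1, chr15:38252586-38252885, plus strand: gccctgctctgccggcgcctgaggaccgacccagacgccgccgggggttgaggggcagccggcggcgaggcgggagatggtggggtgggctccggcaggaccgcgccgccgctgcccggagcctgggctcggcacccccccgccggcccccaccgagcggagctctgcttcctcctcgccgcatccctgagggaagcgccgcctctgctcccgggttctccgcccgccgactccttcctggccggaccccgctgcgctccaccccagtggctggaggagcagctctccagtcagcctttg

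RefSeq windows of 8 of the 10 genes were searched, 13 in all. Windows on chromosome 8, where DUSP4 lies, were left out of this search, and DUSP5 had none. The DUSP1 window held a full cyclic AMP response element, which starts 125 bases before the transcription start, and a TATA box that starts 30 bases before it. Of 35116 windows of that length over all genes, 1.85% held the element and 11.5% the TATA box. An ETS core was present in the first SPRY2 window and in 1 of 2 SPRY1 windows, against 17.2% of all windows. The second SPRED2 window held 2 AP-1 sites and a TATA box, and AP-1 sites occurred in 7.71% of all windows. The CArG box, found in 1.29% of all windows, was in none of the 13, and the windows of SPRED1 and DUSP6 held none of the motifs. The short element, found in 24.6% of all windows, occurred 4 times in the DUSP1 window, where the full element holds it on both strands. It occurred once each in the SPRY4 window, the second DUSP10 window, the first SPRY2 window and the first SPRED2 window. No searched motif was thus in windows of all 3 genes past 1.5-fold. The short element was in 1 of 3 SPRY2 windows and 1 of 2 DUSP10 windows, and the share of genes with it in any window was not computed. These matches describe letters only.

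DUSP1 encodes a nuclear phosphatase of p38, JNK and ERK and is a classic immediate early gene. It (ENSG00000120129.6, chromosome 5 from 172768090 to 172771195, minus strand) had 1248 counts under ASO-NC (26.7 CPM) and 1265 under ASO-1235 (32.4 CPM). The ratio was 1.21 (95% interval 1.12 to 1.31), and 1.08 to 1.36 on halved counts. Halved counts stand for the case that both mates of each read pair were counted. The table held an excess of even numbers, the cause of which was not tested. DUSP1 was thus higher in the ASO-1235 library beyond counting error under either interval.

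DUSP4, a nuclear phosphatase of ERK and JNK, was by far the most abundant of the 10. The gene (ENSG00000120875.9, chromosome 8 from 29333064 to 29350668) had 21356 counts under ASO-NC (457 CPM) and 16158 under ASO-1235 (414 CPM), a ratio of 0.905 (0.886 to 0.923). Its large counts make the interval narrow, but the difference was small, and scaling by total count brought the ratio to 0.960 (0.940 to 0.980). DUSP5, a nuclear phosphatase specific to ERK (ENSG00000138166.6, chromosome 10 from 110497838 to 110511544), had 610 and 448 counts (13.1 and 11.5 CPM). Its ratio of 0.878 had an interval of 0.776 to 0.994 that included 1 on halved counts (0.736 to 1.05) and with scaling by total count (0.823 to 1.05).

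DUSP6 is the cytoplasmic ERK phosphatase most often read as a marker of ERK output. It (ENSG00000139318.8, chromosome 12 from 89347232 to 89353271) had 1464 counts under ASO-NC (31.4 CPM) and 1068 under ASO-1235 (27.4 CPM). The ratio was 0.872 (0.805 to 0.945), lower also on halved counts (0.779 to 0.977), while with scaling by total count the interval reached past 1 (0.854 to 1.002). DUSP6 had the lowest ratio of the 10 genes.

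DUSP10, a phosphatase of p38 and JNK with little activity on ERK, stood at the other end of the family. The gene (ENSG00000143507.18, chromosome 1 from 221701424 to 221742176) had 661 counts under ASO-NC (14.2 CPM) and 927 under ASO-1235 (23.7 CPM). Its ratio was 1.68 (1.52 to 1.86), and 1.45 to 1.94 on halved counts. With 95.7% of all genes at 1 CPM below it, DUSP10 was among the higher ratios of the table. Among the 2870 genes of like expression (mean of 12.0 to 29.3 CPM), 2.37% were at least 1.5-fold higher.

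Among the Sprouty genes, SPRY2, a receptor-proximal inhibitor that is itself degraded through CBL, was the scarce one and had the highest ratio of the 10. It (ENSG00000136158.12, chromosome 13 from 80335976 to 80340951) had 94 counts under ASO-NC (2.01 CPM) and 141 under ASO-1235 (3.61 CPM), a ratio of 1.79 (1.37 to 2.35, and 1.22 to 2.65 on halved counts). Among the 2871 genes of lowest expression, at means up to 3.11 CPM, 21.1% were at least 1.5-fold higher, so such a ratio was common at the level of SPRY2.

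SPRY1, a related inhibitor of receptor signalling, differed little between the libraries. The gene (ENSG00000164056.11, chromosome 4 from 123396795 to 123403760) had 575 and 543 counts (12.3 and 13.9 CPM), a ratio of 1.13 (1.002 to 1.27) with an interval of 0.953 to 1.34 on halved counts. SPRY4 (ENSG00000187678.10, chromosome 5 from 142310427 to 142326455), which like DUSP6 is commonly read for ERK output, had 1217 and 1009 counts (26.1 and 25.8 CPM). Its ratio of 0.991 (0.911 to 1.08) lay above 1 (1.05) with scaling by total count, so no difference was detectable at this depth.

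The SPRED genes also differed from each other. SPRED1, the family member mutated in Legius syndrome, had 258 counts under ASO-NC (5.53 CPM) and 370 under ASO-1235 (9.48 CPM), a ratio of 1.71 (1.46 to 2.02, and 1.36 to 2.16 on halved counts). The call ended with the GC and length trend removed (1.45). It is ENSG00000166068.13 on chromosome 15 from 38252326 to 38357249. Among the 2870 genes with means from 3.11 to 12.0 CPM, 6.72% were at least 1.5-fold higher. SPRED2 (ENSG00000198369.10, chromosome 2 from 65310851 to 65432637), with the same RAS-directed role, had 2276 and 2032 counts (48.7 and 52.0 CPM). Its ratio was 1.07 (1.005 to 1.13), and 0.980 to 1.16 on halved counts.

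**Figure D1:**
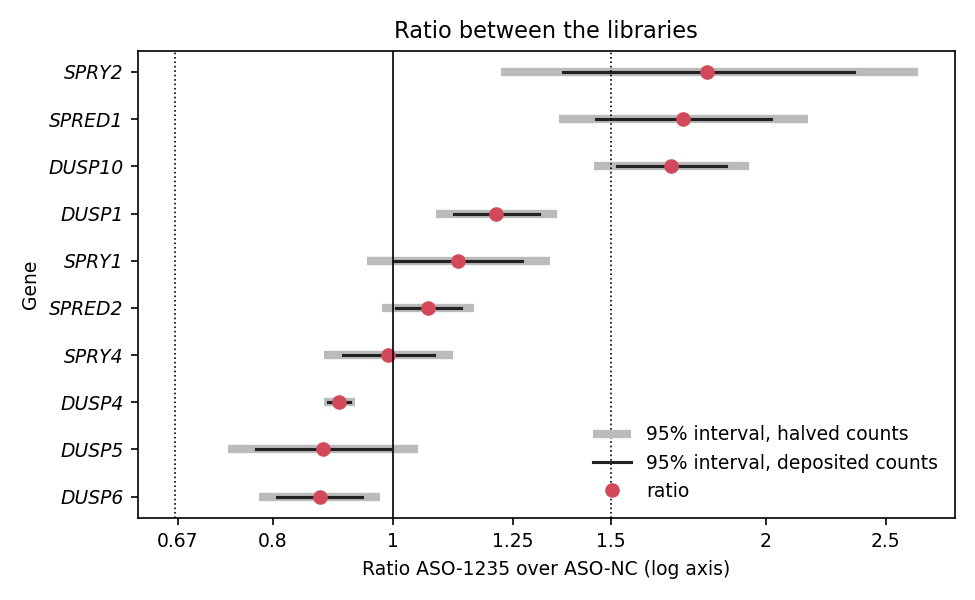
Ratio of ASO-1235 over ASO-NC (x axis, log scale) for the 10 genes (y axis), with the exact 95% interval on deposited counts (dark line) and on halved counts (grey bar); dotted lines mark 1.5-fold either way. SPRY2, SPRED1 and DUSP10 lie to the right of 1.5, from 1.68 to 1.79, while DUSP4, DUSP5 and DUSP6 lie just below 1.

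Across the 10 genes, 6 intervals lay above 1, 3 below 1 and 1, that of SPRY4, included it. Over all genes at 1 CPM, 29.7% of intervals lay above 1 and 29.8% below it, so an interval that excludes 1 was common in these libraries. On halved counts 4 of the 10 lay above 1 (DUSP1, DUSP10, SPRY2 and SPRED1) and 2 below (DUSP4 and DUSP6), beside 22.8% and 23% of all genes.

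**Figure D2:**
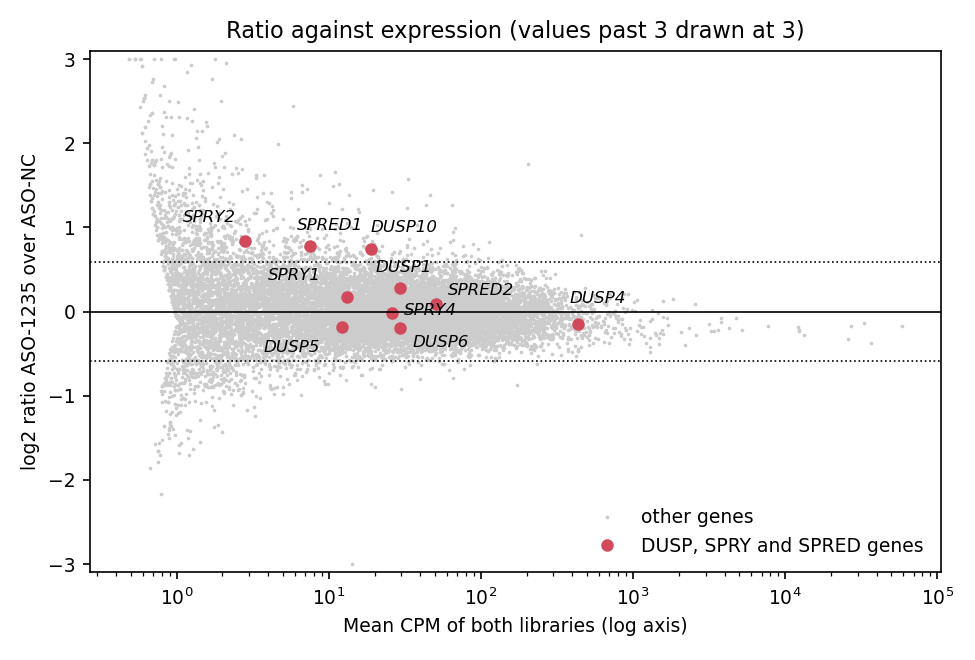
The log2 ratio of ASO-1235 over ASO-NC (y axis) against the mean CPM of both libraries (x axis, log scale) for all 14352 genes at 1 CPM (grey points) and the 10 genes (red points); dotted lines mark 1.5-fold. SPRY2 sits where the grey cloud is widest and DUSP4 where it is narrow.

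The count of one gene relative to another within a library does not depend on the scaling between libraries. For each of the 45 pairs, the ratio of the 2 genes in ASO-1235 was divided by that in ASO-NC. The interval of this quotient excluded 1 for 34 pairs, and for 29 on halved counts. No such share was computed over pairs of all genes, so these counts cannot be called particular to this group. Of single genes at 1 CPM, 29.7% had an interval above 1 and 29.8% below it. SPRY2 over SPRY4 was 1.81 times as high in ASO-1235 (1.36 to 2.41), SPRED1 over SPRED2 1.61 times (1.35 to 1.91), and DUSP6 over DUSP10 0.520 times (0.457 to 0.592). Within each of the 3 families, at least 1 gene was therefore higher in ASO-1235 against a relative beyond counting error. These 3 pairs set the highest ratio of each family against the lowest among the genes compared. No GC and length trend was removed from the quotients.

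Between the 3 highest genes the quotients were close to 1 with wide intervals. DUSP10 over SPRY2 was 0.935 (0.699 to 1.247), DUSP10 over SPRED1 0.978 (0.807 to 1.19) and SPRY2 over SPRED1 1.05 (0.762 to 1.44). The 3 DUSP genes below 1 were also not told apart. DUSP4 over DUSP5 was 1.03 (0.909 to 1.17), DUSP4 over DUSP6 1.04 (0.955 to 1.13) and DUSP5 over DUSP6 1.01 (0.868 to 1.17). DUSP6 over SPRY4, a pair of common ERK readouts, was 0.880 (0.783 to 0.989), and the interval included 1 on halved counts (0.746 to 1.04).

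Levels were compared between genes as CPM per kilobase of the longest annotated transcript. In ASO-NC, DUSP4 stood at 82.6 CPM per kilobase, followed by DUSP1 at 13.2, SPRED2 at 11.9 and DUSP6 at 7.13. DUSP10, DUSP5, SPRY4 and SPRY1 followed between 4.72 and 5.29, with overlapping counting intervals, so that these neighbours were not told apart. SPRY2 at 0.743 and SPRED1 at 0.710 CPM per kilobase were lowest and also overlapped. The 2 scarcest of the 10 genes were thus also the 2 with the highest ratios.

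In ASO-1235, DUSP4 again led with 74.7 CPM per kilobase, before DUSP1 at 16.0 and SPRED2 at 12.7. DUSP10 at 8.87 (8.31 to 9.46) now lay above DUSP6 at 6.22 (5.85 to 6.60), the reverse of their order in ASO-NC. SPRY1 at 5.33, SPRY4 at 4.83 and DUSP5 at 4.49 came next, and SPRY2 at 1.33 and SPRED1 at 1.22 were last. The order of SPRY1, SPRY4 and DUSP5 depends on the length used. With the union of all exons it was reversed, DUSP5 at 4.39, SPRY4 at 3.94 and SPRY1 at 3.51 CPM per kilobase in ASO-1235, and in ASO-NC SPRY1 at 3.11 lay below SPRY4 at 3.97.

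**Figure D3:**
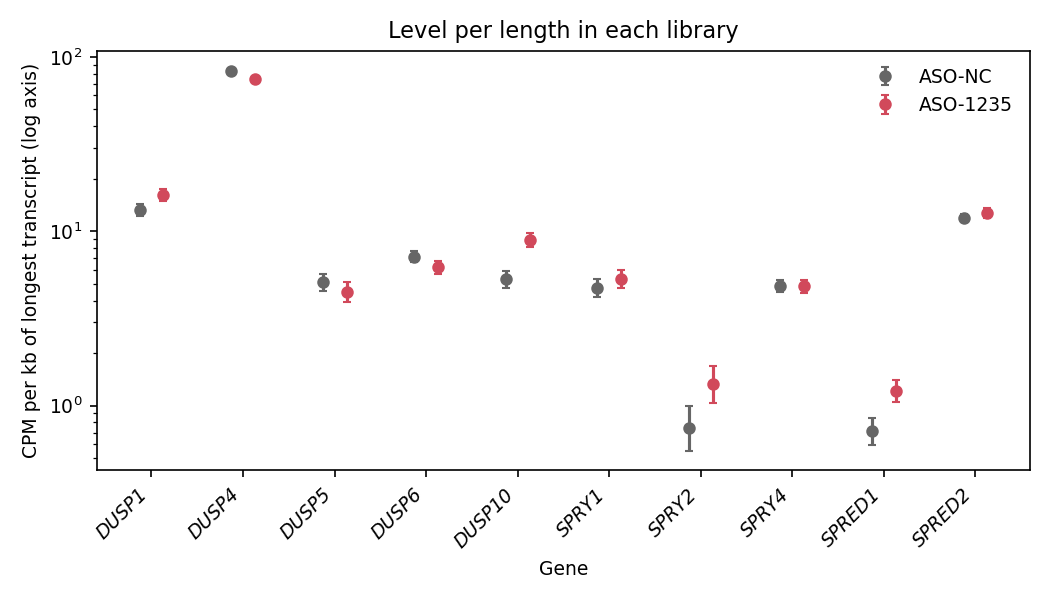
Level per length (y axis, CPM per kilobase of the longest transcript, log scale) of the 10 genes (x axis) in the ASO-NC (grey) and ASO-1235 (red) library; bars are 95% Poisson intervals on halved counts. DUSP4 lies far above the rest in both libraries, and SPRY2 and SPRED1 lie lowest.

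The MAPK phosphatase family has 10 members, which include the 5 above. The other 5 are given here by the kinase each is best known for, an order set after values of the 10 genes had been seen. DUSP8 and DUSP16, like DUSP10, act on JNK and p38. DUSP8 had 271 and 359 counts (5.80 and 9.19 CPM), a ratio of 1.58 (1.35 to 1.86), and DUSP16 had 1720 and 1680 counts (36.8 and 43.0 CPM), a ratio of 1.17 (1.06 to 1.29 on halved counts). DUSP8 was thus past 1.5-fold and DUSP16 was higher by a smaller amount.

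DUSP7 and DUSP9 are, like DUSP6, cytoplasmic phosphatases of ERK. DUSP7 had 993 and 753 counts (21.3 and 19.3 CPM), a ratio of 0.907 (0.824 to 0.998), whose interval included 1 on halved counts (0.791 to 1.04) and whose log2 ratio was 0.020 with a trend on GC content and length removed. DUSP9 did not reach 1 CPM, with 8 and 20 counts, a ratio of 2.99 (1.26 to 7.85) whose interval included 1 on halved counts (0.862 to 13.1). Among the inducible nuclear phosphatases, DUSP2 was scarce at 42 and 48 counts, with a ratio of 1.37 (0.884 to 2.12), and DUSP1 and DUSP4 went opposite ways. Ratios on both sides of 1 thus occurred among the phosphatases of ERK.

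DUSP4 made up 64.2% of the summed level per length of the 10 phosphatases in ASO-NC and 58.7% in ASO-1235. The share of DUSP10 went from 4.11% to 6.97% and that of DUSP1 from 10.3% to 12.6%, while that of DUSP6 went from 5.54% to 4.88%. The summed level itself was 128.6 CPM per kilobase in ASO-NC and 127.3 in ASO-1235. Summed counts of the 10 phosphatases gave a ratio of 0.958 (0.941 to 0.975, and 0.934 to 0.982 on halved counts). DUSP4 gave most of them, 21356 of 28373 in ASO-NC and 16158 of 22726 in ASO-1235. The ratio of the sum was not computed with scaling by total count. By level per length, the libraries thus held a similar amount of phosphatase transcript in a somewhat different mix.

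Of the remaining Sprouty and SPRED relatives, SPRY3 had 0 counts in both libraries. SPRED3 had 826 and 653 counts (17.7 and 16.7 CPM), a ratio of 0.945 (0.852 to 1.05). Summed counts gave a ratio of 1.07 (1.005 to 1.15) for the Sprouty genes and 1.09 (1.04 to 1.14) for the SPRED genes. On halved counts the Sprouty interval included 1 (0.977 to 1.18) and the SPRED interval did not (1.01 to 1.17). SPRY2 and SPRED1 therefore weighed little in their families, at 7.19% and 4.35% of the summed level per length in ASO-NC and 11.6% and 6.99% in ASO-1235.

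The rest of the pathway was read from lists of 116 distinct genes, of which 113 reached 1 CPM. At least 1.5-fold higher were 9 (7.97%, beside 6.4% of all genes) and 0 were lower (beside 2.95%), with a median log2 ratio of 0.08. Besides DUSP8, these were BRAF, RASGRP1, ETV1, FOS, EGR1, LIF, SIAH1 and NEDD4. The share is close to that of all genes.

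Of 10 receptor genes, 0 passed 1.5-fold either way and the median log2 ratio was −0.10. FGFR4 had the lowest ratio at 0.798 (0.764 to 0.833) and MET the highest at 1.27 (1.19 to 1.36). Of 10 adaptor and RAS activator genes, RASGRP1, a RAS exchange factor, was the single one past 1.5-fold, at 134 and 190 counts and 1.69 (1.35 to 2.13). Of 16 genes of the RAS, RAF, MEK and ERK cascade, BRAF alone passed, at 1702 and 2275 counts, which gives 1.60 (1.5 to 1.70). Of these 16 genes, 8 ratios lay above and 8 below 1.

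Among 17 genes of the JNK and p38 cascade, 0 passed either way. The kinase gene MAP3K5 had the highest ratio, 1.42 (1.22 to 1.64), and the p38 gene MAPK11 the lowest, 0.731 (0.636 to 0.840). Of 16 other feedback inhibitors and RAS GTPase-activating proteins, 0 passed, from SOCS3 at 0.825 (0.612 to 1.11) to RASAL2 at 1.29 (1.11 to 1.51). Of the 10 DUSP, SPRY and SPRED genes 7 stayed within 1.5-fold, beside 90.3% of all genes at 1 CPM.

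Of 22 ERK target genes at 1 CPM, 4 were higher (beside 6.4% of all genes) and 0 lower (beside 2.95%). The immediate early gene EGR1 had 1194 and 2403 counts (2.41, 2.24 to 2.58), and FOS had 126 and 188 (1.78, 1.42 to 2.25). The ETS factor gene ETV1 had 16 and 68 counts (5.08, 2.92 to 9.39), and the cytokine gene LIF had 24 and 42 (2.09, 1.24 to 3.61), whose interval on halved counts included 1 (0.983 to 4.67). ETV1 and LIF both lie among the 2871 genes of lowest expression, of which 21.1% were at least 1.5-fold higher. The list median was 0.09 and 15 of 22 ratios lay above 1. The readouts named here therefore did not point one way: EGR1 and FOS were higher, DUSP6 slightly lower and SPRY4 near 1. With scaling by total count the interval of DUSP6 included 1. ERK target genes at 1 CPM other than the 4 passed 1.5-fold neither way.

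Of 7 genes for turnover of Sprouty and DUSP proteins, the ubiquitin ligase genes SIAH1 and NEDD4 passed (beside 6.4% of all genes), at 1.63 (1.43 to 1.86) and 1.61 (1.51 to 1.72). Neither call held with the GC and length trend removed. Of 11 genes for decay and stability of AU-rich mRNAs, 0 passed, from ZFP36L1 at 0.838 (0.821 to 0.854) to TNPO1 at 1.21 (1.17 to 1.247), which lay below 1 with the GC and length trend removed.

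**Figure D4:**
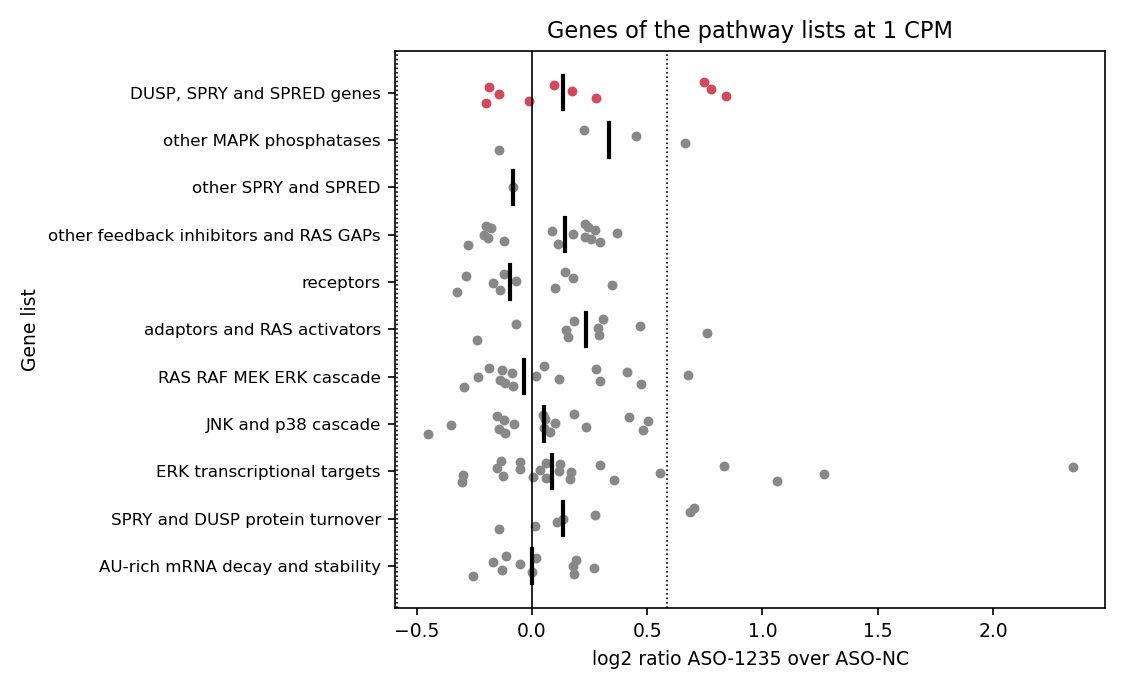
The log2 ratio of ASO-1235 over ASO-NC (x axis) for each gene at 1 CPM in each list (y axis); points are genes, spread vertically for sight only, black bars are list medians and dotted lines mark 1.5-fold. The 10 DUSP, SPRY and SPRED genes (red) fall into 3 points past 1.5-fold and 7 between 0.872 and 1.21 as ratios.

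Ratios moved with the base composition of transcripts over the whole table. Genes of low GC content (the lowest 2804, up to 40.9%) had a median log2 ratio of 0.20, and the highest 2804 one of −0.19. SPRED1, at 38.9% GC and 7780 nucleotides, lies in that low-GC group and among the 2804 longest transcripts. Its ratio with the trend removed had an interval of 1.24 to 1.71. DUSP10 at 45.6% GC and SPRY2 at 48.3% stayed past it, at 1.63 (1.48 to 1.81) and 1.81 (1.39 to 2.38). DUSP1, at 55.1% GC, went from a log2 ratio of 0.28 to 0.41. Of the 9 pathway genes past 1.5-fold, BRAF, SIAH1 and NEDD4 came below it, at log2 ratios of 0.44, 0.50 and 0.43. DUSP2 and VGF, the latter named after its values were seen, came past it at 0.65 and 0.71, so that 8 pathway genes passed.

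**Figure D5:**
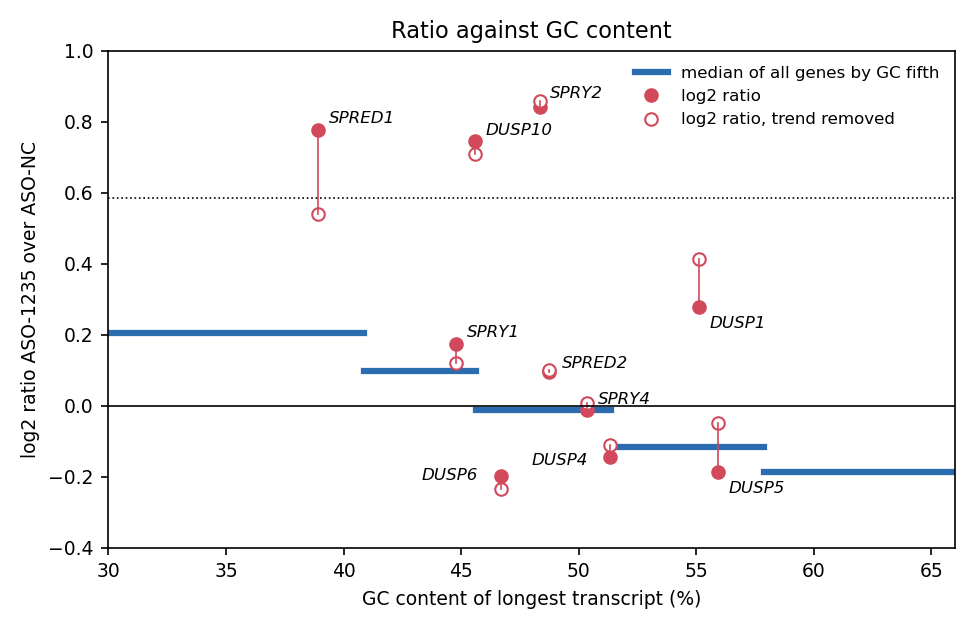
The log2 ratio of the 10 genes (filled points) and the same with the GC and length trend removed (open points) on the y axis, against GC content of the longest transcript in percent (x axis); blue bars are medians of all genes in 5 equal groups by GC content and the dotted line marks 1.5-fold. SPRED1 moves from 0.78 to 0.54 and the other points by less.

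Many transcripts of this class are short-lived, and the pentamer ATTTA in the 3′ untranslated region is a known instability element. In the longest coding transcript, DUSP1 held 4 in 672 bases (5.95 per kilobase), SPRED1 24 in 5585 (4.30), SPRY1 4 in 1209 (3.31), DUSP10 3 in 988 (3.04) and SPRY2 2 in 782 (2.56). SPRY4 held 8, DUSP4 6 and SPRED2 5, from 1.51 to 2.12 per kilobase. DUSP6 held 1 in 2022 bases and DUSP5 0 in 1118. The median over 12246 genes at 1 CPM with such a region was 1.65 per kilobase, and 73.9% held at least 1. The 5 genes with the highest ratios were the 5 with the densest pentamer, a description over 10 genes noticed after their values were seen and given with no test. Over the whole table, the 4184 genes with at least 2.5 pentamers per kilobase had a median log2 ratio of 0.13 and the 8062 others one of −0.07. The pentamer-dense genes also had less GC, a median of 41.6% against 52.5%, and with the GC and length trend removed the medians were 0.00023 and −0.03.

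Strand settings of the counting are not given, and annotated antisense genes overlap DUSP1, DUSP6 and SPRY4. The most abundant overlapping gene was SPRY4-AS1 with 37 and 26 counts, small beside the 1217 and 1009 of SPRY4.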

How the data were processed

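Polyadenylated RNA of 2 libraries was sequenced. The authors deposited raw counts per gene, with STAR 2.7.11a, featureCounts 2.0.6 and build hg38 named per the submitters' processing notes; the sources used here give neither annotation release nor strand setting. A gene ID without counts and the 2 coordinate lines after it (3 lines in all) were left out. The genes and lists were chosen with earlier results of these data known. Genes named were the 10 genes, their family, list genes past 1.5-fold or, for lists with none, the highest and lowest.

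Genes at 1 CPM by total count were scaled with TMM (edgeR 4.0.16, R 4.3.3) (factors 0.971 and 1.03); edgeR gave no test. Ratios have exact (Clopper-Pearson) 95% intervals given the summed counts, pairs exact conditional ones (scipy 1.17.1). Among genes with 1 to 1000 counts 67.5% and 64.0% were even, so intervals were repeated on halved counts. Reads copied by PCR are not independent molecules, and intervals cover counting error only. Coordinates, lengths and GC content came from GENCODE 29 (GRCh38), in which 58206 IDs were found. The GC and length trend was a robust fit on splines of 5 degrees of freedom (statsmodels 0.14.6). Alternatives were DESeq2 1.42.0 size factors, upper quartile, total count, no mitochondrially encoded genes, a prior count of 5, and other minimums, fold sizes and intervals. The interval calculation was tested on simulated data. One gene of the immune marker list is not reported here.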

Additional observations from a re-analysis of the deposited data

How the results depend on the processing

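No paired analysis was possible because each group has 1 library. The 3 genes past 1.5-fold kept that count under every scaling tried and on halved counts. It was 2 with the GC and length trend removed or at a minimum of 5 CPM, and 0 at 2-fold. The share of all genes was not computed with the trend removed or at 5 CPM. The count of lower genes was 0 under every alternative run, and the median log2 ratio of the 10 genes stayed between 0.09 and 0.22. With scaling by total count, which adds 0.09 to each log2 ratio, 1 interval (DUSP4) in place of 3 lay below 1. With the union of exons as length, DUSP4 made up 60.1% of phosphatase level in ASO-NC. At 2-fold, 3 of the 9 pathway genes passed, and 8 pathway genes passed 1.5-fold with the trend removed. With the trend removed, 4 of the 31 named genes changed sign: DUSP7 and TNPO1, to log2 ratios of 0.020 and −0.029, and SPRY4 and SPRED3, whose intervals included 1, to 0.0073 and 0.06. The cause was not tested. Depth limits the scarce genes most: at 94 and 141 counts, SPRY2 has the widest interval.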
